A study of Mus musculus with 4 samples.

Results

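The transcription factor p53, encoded by Trp53 in the mouse, and 9 of its known target genes were examined in 2 mouse liver tumours and in normal liver by RNA sequencing. The genes were chosen by symbol: Trp53, Mdm2, Phlda3, Bax, Bbc3, Ccng1, Sesn2, Gdf15, Perp and Zmat3. All 10 were listed in each count table, among 25793 symbols. Tumours 1 and 2 were labelled as liver tumours of beta-2SP+/- ; SMAD3+/- mice, which carry 1 disrupted copy each of the beta-2 spectrin gene and of Smad3. One normal liver library was labelled with the same double heterozygous genotype and the other as wild type. The labels give no treatment, age or strain, and do not say whether the tumours came from separate animals, so that p-values measure only the spread between these samples. The submitters' short descriptions carry other words (Elf and Smad for tumours 1 and 2, each with Tcell, and hepatocytes for both normal libraries); groups follow the genotype and disease labels.

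p53 is held low in unstressed cells by MDM2, a ubiquitin ligase that marks it for degradation and whose gene p53 itself switches on. DNA damage, oncogene activity or other stress frees p53, which then binds paired decamer motifs and raises genes that stop the cell cycle, repair DNA, trigger apoptosis or adjust metabolism. Much of p53's control lies in the protein, so Trp53 mRNA alone does not report its activity. In liver, p53 restrains the growth of damaged hepatocytes, and its loss or mutation is common in liver cancer. Gene counts do not show whether Trp53 carried a mutation.

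Since p53 acts by binding DNA, the promoters of these genes were searched for its motif. RefSeq promoter windows of build GRCm38.p6, 250 bases before to 50 after a transcription start, were found for 8 of the 10 genes, 11 windows in all. They were not found for Perp and Zmat3. The p53 consensus decamer reads the same on both strands. Of all 32851 mouse windows, 8.36% held it without a mismatch. So did 4 of the 11 windows of these genes, 1 each of Trp53, Mdm2, Bax and Ccng1. A full site is a pair of adjacent decamers with their C and G cores intact. With at most 3 mismatches it was present in 1.38% of all windows. It was present in 3 of the 11, 1 each of Ccng1, Bbc3 and Trp53. The Ccng1 site had 1 mismatch, and 0.067% of all windows held a site that close. The sites found in 5 of the 8 genes are shown so that the matches can be compared. Capitals mark the full site in the first 3 sequences and the single decamer in the others. The full sites of Ccng1 and Trp53 contain their matching decamers.
Ccng1, chr11:40755432-40755511, minus strand: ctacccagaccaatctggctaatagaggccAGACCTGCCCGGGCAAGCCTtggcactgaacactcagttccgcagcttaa
Bbc3, chr7:16309456-16309535, plus strand: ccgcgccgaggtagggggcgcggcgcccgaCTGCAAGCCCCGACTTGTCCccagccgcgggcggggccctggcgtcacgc
Trp53, chr11:69580254-69580333, plus strand: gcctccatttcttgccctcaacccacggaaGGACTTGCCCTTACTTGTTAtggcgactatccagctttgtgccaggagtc
Mdm2, chr10:117710905-117710974, minus strand: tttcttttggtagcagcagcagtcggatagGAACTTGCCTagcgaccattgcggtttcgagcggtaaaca
Bax, chr7:45467060-45467129, minus strand: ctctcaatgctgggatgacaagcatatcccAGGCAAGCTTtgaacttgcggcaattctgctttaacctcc
The capitals began 195 bases before the start in Ccng1, 97 in Bbc3, 75 in Trp53, 186 in Mdm2 and 201 in Bax. These matches describe letters only, and the windows of Phlda3, Sesn2 and Gdf15 held neither form.

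The libraries held between 11049931 (tumour 1) and 18448621 (wild type) gene counts. The normal tables were closer than separate libraries would be. Among 2632 genes averaging 1 to 5 counts, the tables gave the same count for 56.8%, where sampling gives 29.3%. The tables were therefore merged, by their rounded mean, into 1 normal library. Summed markers, in CPM (the share of a library's gene counts, per 1000000), set the tumours apart from normal liver. The 10 hepatocyte markers summed to 227 and 224 CPM in tumours 1 and 2 against 103922 to 108595 in the normal tables. All 10 lay below both normal tables, and most of their tumour counts were of Hnf4a (2323 and 1991 against 11330 and 12038). The 7 bile duct markers summed to 3364 and 2980 CPM against 26.6 to 28.8. Most bile duct marker counts were of Spp1, Krt19 and Krt7, and in tumour 2 Epcam (4 counts against 46 and 48) and Cftr (7 against 15 and 16) lay below both normal tables. Endothelial markers (5 genes) summed to 0.724 and 1.58 CPM against 126 to 127. T cell markers (10 genes) summed to 0.814 and 1.58 CPM against 4.89 to 5.64, with 9 and 7 of them at 0. Cd3d, Cd3e, Cd3g, Cd4 and Cd8a were at 0 in both tumours, though Cd3d and Cd8a had only 1 count in each normal table. Lck went the other way, with 9 and 11 counts in tumours 1 and 2 against 5 and 8. Cd247 had 1 count in tumour 2 and 0 in the other libraries. B cell markers (4 genes) were at 0 and 0.075 CPM against 2.07 to 2.33. The tumours differed from each other in markers of dividing cells (8 genes, 153 and 3133 CPM against 3.07 to 3.36) and of fibroblasts and stellate cells (8 genes, 6.52 and 1022 CPM against 58.4 to 63.1). Of these 8, the collagen and Pdgfr genes and Des were above normal liver in tumour 2, while Dcn (154 counts against 580 and 605) and the stellate marker Lrat (0 against 114 and 118) were below. Leukocyte and macrophage markers (7 genes) summed to 91.2 and 8.27 CPM against 76.2 to 78.1, and their members went both ways in each tumour. In tumour 2, Cd68 (65 counts against 21 and 23) was above both normal tables and the other 6 were below. In tumour 1, 4 were above both normal tables, with Lyz2 (644 counts) and Itgam (162) among them. The 3 below were Ptprc, Csf1r (44 counts against 342 and 375) and the Kupffer cell marker Clec4f (0 against 509 and 556). In bulk libraries, fewer cells of a type and less RNA per cell cannot be told apart, and the part of these differences in the values below was not tested.

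Most of these p53 genes stood above normal liver in each tumour, but 1 of the 10, Phlda3, passed the test. Counts were scaled by TMM (edgeR's trimmed mean of M values), and all CPM values from here on are on that scale. Tumours and the normal library were compared with edgeR's quasi-likelihood test over 14468 genes, with Benjamini-Hochberg adjustment and a threshold of 0.05. This fit has 1 residual degree of freedom, from the tumours. Of all genes tested, 2.23% were called higher and 5.19% lower. At an unadjusted p under 0.05, 4 of the 10 genes were higher (Phlda3, Ccng1, Gdf15 and Bax), against 12.5% of all genes, and 0 were lower, against 15.5%. DESeq2 called the same 4 higher, against 11.3% of all genes, and 0 lower, against 11.9%.

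**Figure D1:**
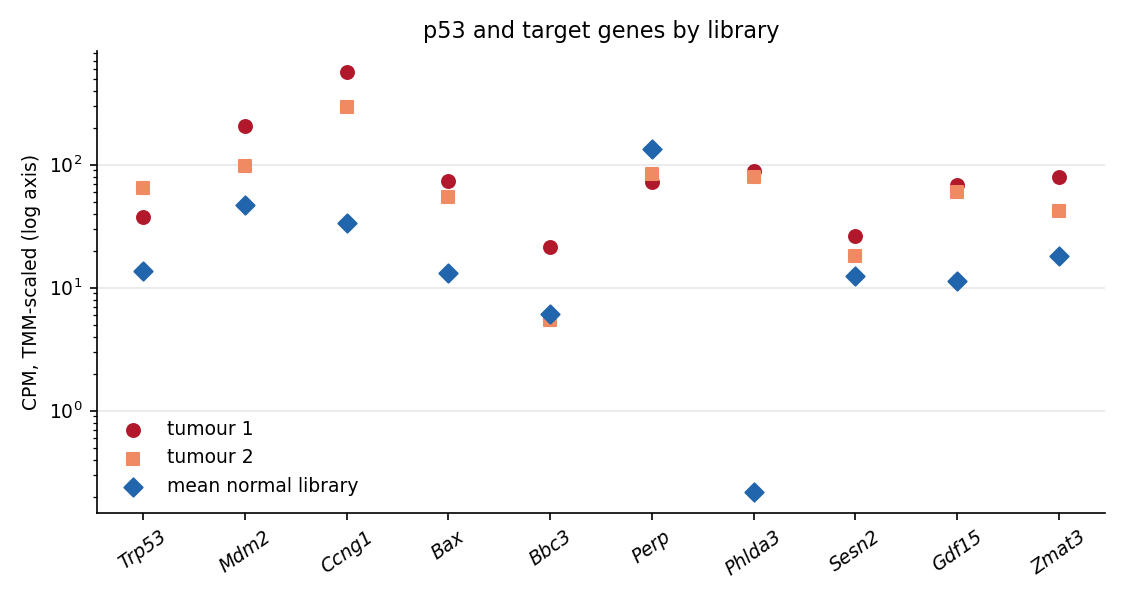
TMM-scaled CPM (log axis) of the 10 genes in tumour 1 (circles), tumour 2 (squares) and the mean normal library (diamonds). Phlda3 had 0.219 CPM in normal liver and 87.9 and 79.1 in the tumours, while Perp, on this scale, was highest in normal liver.

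Both tumours lay above both normal tables for 8 of the 10 genes, against 40.6% of all genes tested. Perp lay below both in both tumours, as did 37.9% of all genes, and Bbc3 overlapped. This count depends on scaling. With library size as the only scaling, the median log2 fold change of all genes moved from 0.19 to 1.56. All 10 genes then lay above both normal tables in both tumours, as did 66.8% of all genes, and the direction of Perp reversed. The median log2 fold change of the 10 genes was 1.82 with TMM and 3.19 with library size only, each above that of all genes. The 10 genes were chosen with earlier results of these data known, so these counts and medians are descriptions only.

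Trp53 itself had 552 and 1192 counts in tumours 1 and 2, 83 in the double heterozygous normal table and 166 in the wild type table. Tumour 2 was the highest and the groups did not overlap after scaling. The tumours averaged 50.6 ± 18.9 CPM (SD, n = 2) and the normal library 13.6 CPM. The log2 fold change was 1.90 (SE 0.71, edgeR adjusted p = 0.181), which did not pass. The normal value is uncertain. Of the 31-base words in Trp53 transcripts, 10.4% also occur in another gene, chiefly the pseudogene Trp53-ps. Of the 9 genes compared between the normal tables, Trp53 differed most. Against the double heterozygous table alone its log2 fold change was 2.30 (adjusted p = 0.143) and against the wild type table alone 1.59 (0.218), in a range of adjusted p from 0.0352 to 0.218 over 9 alternatives.

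Mdm2, whose product degrades p53, had 3034 and 1829 counts in tumours 1 and 2 against 375 and 489 in the double heterozygous and wild type normal tables. Both tumours were above both normal tables, tumour 1 the higher. Mdm2 reached 151 ± 75.1 CPM (SD, n = 2) against 47.3 CPM, and the log2 fold change of 1.67 (SE 0.74, edgeR adjusted p = 0.230) did not pass. Ccng1 encodes cyclin G1, which recruits a phosphatase to MDM2 and its gene is a classical p53 target. It had 8441 and 5502 counts in tumours 1 and 2 against 301 and 305. Neither tumour came near the normal tables: tumour 1 was 17.1-fold above the normal library (exact 95% counting interval 15.3 to 19.3) and tumour 2 8.89-fold (7.92 to 10.01). The log2 fold change was 3.70 (SE 0.86, edgeR adjusted p = 0.0824), which did not pass. DESeq2 called it at adjusted p = 9.41e-05, in a range of 9.41e-05 to 0.0907 over 10 alternatives. Counting intervals, here and below, cover counting error only and not the spread between animals. As shown above, Ccng1 has the closest match to a full p53 site among these promoters, and a link to its counts was not tested.

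None of the apoptosis members, Bax, Bbc3 and Perp, passed the test. Bax encodes a pore-forming protein of the mitochondrial outer membrane. It had 1087 and 1014 counts in tumours 1 and 2 against 106 and 133 in the double heterozygous and wild type tables. The tumours were alike and well above the normal tables, at 63.8 ± 13.3 CPM (SD, n = 2) against 13.2 CPM. Its log2 fold change of 2.28 (SE 0.64, edgeR adjusted p = 0.116) did not pass, while DESeq2 gave adjusted p = 0.0366, in a range of 0.00813 to 0.117 over 9 alternatives. Bax shares 12.7% of its 31-base words with other genes, chiefly the predicted gene Gm45808, so its counts are uncertain.

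Bbc3 encodes PUMA, which activates BAX by binding its inhibitors. It had 315 and 102 counts in tumours 1 and 2 against 53 and 58. With TMM scaling only tumour 1 stood above normal liver, 3.46-fold (counting interval 2.59 to 4.68), and tumour 2 was at 0.892 times the normal level (0.638 to 1.26). The mean of 13.3 ± 11.1 CPM (SD, n = 2) against 6.13 CPM gave a log2 fold change of 1.12 (SE 1.14, edgeR adjusted p = 0.556). Perp encodes a membrane protein of desmosomes that also takes part in p53-dependent apoptosis. It had 1065 and 1575 counts against 1198 and 1261. Scaled to CPM, both tumours lay below the normal tables, at 78.1 ± 9.04 (SD, n = 2) against 135. The log2 fold change of -0.79 (SE 0.52, edgeR adjusted p = 0.378) did not pass, and it was 0.59 (0.437) with library size as the only scaling, in a range of 0.0482 to 0.524 over 10 alternatives.

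Phlda3 rose. Its product, a small pleckstrin homology protein, competes with AKT for membrane lipids and so restrains AKT signalling. It had 1305 and 1474 counts in tumours 1 and 2 against 2 and 3 in the normal tables. Both tumours were near 83.5 ± 6.22 CPM (SD, n = 2), the closest agreement in proportion to the mean among the 10 genes, and normal liver was near the limit of detection. With a rounded normal mean of 2 counts, tumour 1 was 401-fold higher (counting interval 111 to 3315) and tumour 2 361-fold higher (99.7 to 2983). The log2 fold change was 8.52 (SE 0.90, edgeR adjusted p = 0.0229), and Phlda3 was called in each of the 10 alternative fits, with adjusted p from 1.14e-09 to 0.0251. None of its sampled 31-base words occurs in another gene.

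None of the stress and metabolic targets, Gdf15, Zmat3 and Sesn2, passed the test. Gdf15 encodes a secreted stress cytokine of the TGF-beta superfamily. It had 1018 and 1109 counts in tumours 1 and 2 against 95 and 111 in the normal tables. The groups were far apart and the tumours close together, at 64.02 ± 6.40 CPM (SD, n = 2) against 11.3 CPM. Gdf15 had a log2 fold change of 2.50 (SE 0.63, edgeR adjusted p = 0.0942), and DESeq2 called it at adjusted p = 0.0161, in a range of 0.00533 to 0.0994 over 10 alternatives. Zmat3 encodes a zinc finger protein that binds RNA and shapes splicing downstream of p53. It had 1170 and 783 counts against 158 and 171. Both tumours exceeded both normal tables, at 60.4 ± 26.01 CPM (SD, n = 2) against 18.0 CPM, with a log2 fold change of 1.75 (SE 0.72, edgeR adjusted p = 0.207). Sesn2 encodes sestrin 2, a leucine sensor that holds back the growth kinase complex mTORC1. It had 393 and 336 counts against 103 and 126, and both tumours were above both normal tables. Tumour 1 was 2.12-fold above the normal library (counting interval 1.72 to 2.63) and tumour 2 1.44-fold (1.16 to 1.80). At 22.2 ± 5.97 CPM (SD, n = 2) against 12.5 CPM, the log2 fold change of Sesn2 was 0.83 (SE 0.69, edgeR adjusted p = 0.470).

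**Figure D2:**
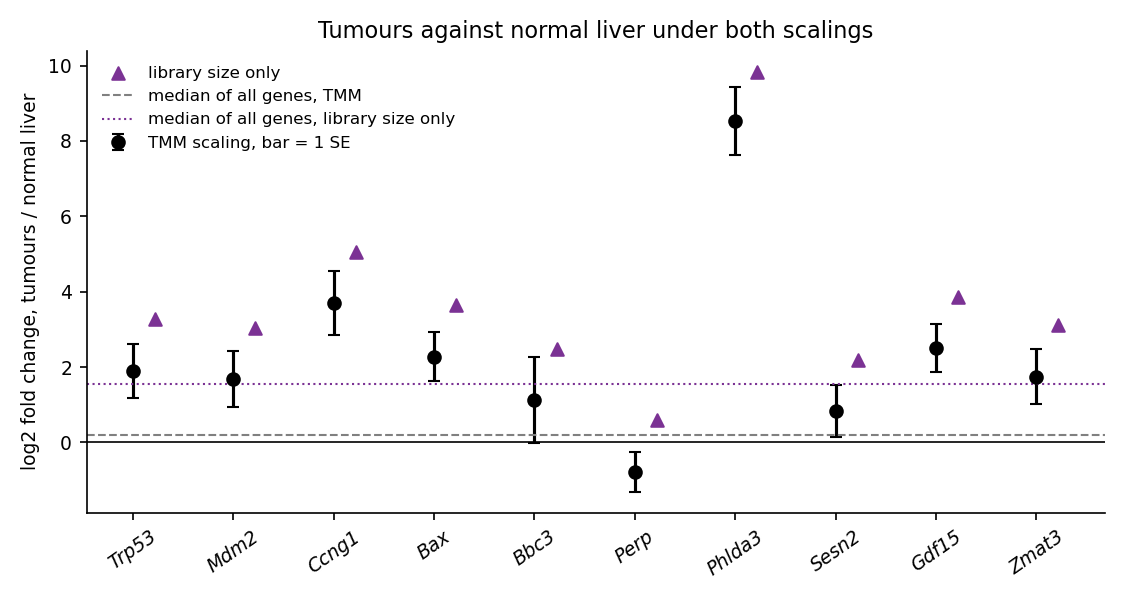
Log2 fold change of tumours over normal liver for the 10 genes with TMM scaling (circles, bars of 1 SE) and with library size only (triangles). The dashed and dotted lines are the medians of all genes tested, 0.19 and 1.56; Perp lies below 0 with TMM and above 0 with library size only.

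Levels were compared between genes only as CPM per kilobase of the longest annotated transcript. In tumour 1 Ccng1 was the highest at 162, followed by Bax (66.5), Mdm2 (65.0) and Phlda3 (61.2), which are close to one another, then Gdf15 (44.4) and Perp (36.7). Bbc3 (11.7), Trp53 (11.3), Zmat3 (10.1) and Sesn2 (7.61) were the lowest. In tumour 2 Ccng1 again led at 84.0, and Trp53, at 19.5, stood above Zmat3 (5.39), Sesn2 (5.19) and Bbc3 (3.02). In normal liver the order was another: Perp led at 69.0, Ccng1 was at 9.45 and Phlda3 was last at 0.153.

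Between tumours 1 and 2, 8 of these 10 genes differed by less than 2-fold, and Trp53 and most of the others lay in opposite directions. With 1 library each there is no test, and the values carry counting error only. Trp53 was 1.72-fold higher in tumour 2 (counting interval 1.55 to 1.91) and Perp 1.18-fold (1.09 to 1.27). The other 8 genes were higher in tumour 1. Bbc3 was 3.88-fold higher there (3.09 to 4.90) and Mdm2 2.08-fold (1.96 to 2.21). These were the 2 genes past 2-fold, with 0 past it in tumour 2. Of all genes, 14.9% were higher in tumour 1 and 18.8% higher in tumour 2 by that much. Beside those shares, the count shows nothing particular to the 10 genes. Ccng1 (1.93-fold) and Zmat3 (1.88-fold) lay just inside. Phlda3 and Gdf15 were nearly level, at 1.11-fold and 1.15-fold. The median log2 ratio of tumour 2 to tumour 1 was -0.49 for the 10 genes, against 0 for all genes tested. For the 47 further p53 targets followed below it was -0.07. Markers of dividing cells and of fibroblasts were higher in tumour 2, as given above, and their part in these differences was not tested.

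**Figure D3:**
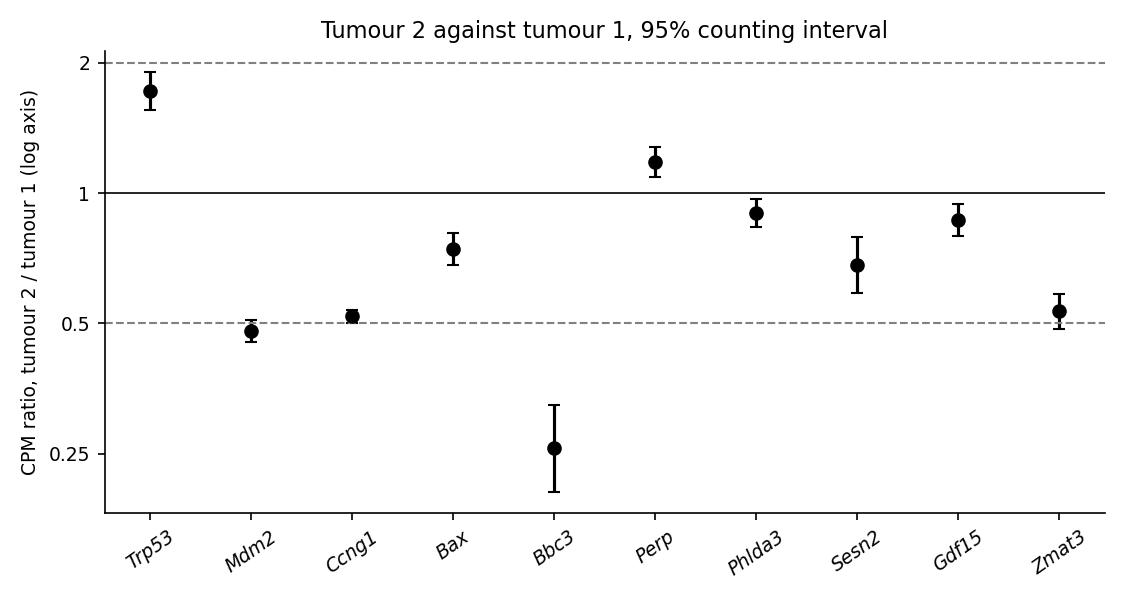
Ratio of TMM-scaled CPM, tumour 2 over tumour 1 (log axis), with exact 95% counting intervals; dashed lines mark 2-fold. Trp53 and Perp lie above 1, the other 8 genes below it, and Bbc3 is lowest at 0.258.

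Other genes of the pathway were followed in 4 lists, 65 genes in all, of which 63 were tested. The lists too were chosen with earlier results of these data known, so their counts and medians are descriptions only. Both tumours lay above both normal tables for 37 of the 63 (58.7%, against 40.6% of all genes) and below for 17 (37.9% of all genes). With library size as the only scaling these counts were 49 (77.8%, against 66.8% of all genes) and 7 (18.8% of all genes). The counts below are to be read against the shares of all genes given for the 10 members, which were 12.5% higher and 15.5% lower without adjustment, and 11.3% higher and 11.9% lower by DESeq2. Among 18 regulators of p53, 16 were tested and edgeR called 0 in either direction. Without adjustment 2 passed 0.05 as higher and 0 as lower. DESeq2 called 3 higher and 0 lower. Their median log2 fold change of 0.23 was near that of all genes (0.19). Cdkn2a, whose locus encodes the MDM2 inhibitor ARF and the CDK inhibitor p16, had 90 and 254 counts in tumours 1 and 2 against 0 and 1 in the normal tables (edgeR adjusted p = 0.0676). Counts per gene do not separate the ARF and p16 transcripts. Mdm4, an MDM2 relative that masks p53's activation domain, was at 55.2 and 51.1 CPM against 79.1 (adjusted p = 0.508). The DNA damage kinase gene Atm was at 93.0 and 87.1 CPM against 62.7. The checkpoint kinase genes Chek1 and Chek2 were at 4.58 and 54.7, and 8.21 and 23.2 CPM, against 1.31 and 1.20 CPM. The p53 relatives Trp63 (0 and 7 counts in the tumours) and Trp73 (0 in all 4 tables) were too low to test.

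Of 15 targets in cell cycle arrest and DNA repair, edgeR called 0 higher and 1 lower. Without adjustment 5 passed 0.05 as higher and 1 as lower. DESeq2 called 6 higher and 1 lower. Both tumours lay above both normal tables for 11 (73.3%, against 40.6% of all genes) and below for 3. The median log2 fold change was 2.40, and 2.31 with genes at 0 in the normal library taken at a floor of 3 counts. Cdkn1a encodes p21, the CDK inhibitor through which p53 stops the cell cycle. It had 1608 and 1112 counts in tumours 1 and 2 against 43 and 43, at a log2 fold change of 4.15 (SE 0.81, edgeR adjusted p = 0.0603). The polo-like kinase gene Plk2 (3175 and 5397 counts against 147 and 192) was at 3.76 (SE 0.71, adjusted p = 0.0562). Its relative Plk3 fell to 53 and 126 tumour counts from 5366 and 7144 in the normal tables, a log2 fold change of -7.05 (SE 0.75, adjusted p = 0.0229). The antiproliferative gene Btg2 was at 195 and 95.8 CPM against 42.2, and Gtse1, a G2 phase gene whose product restrains p53, at 12.4 and 85.8 CPM against 2.30. The repair genes Ddb2 and Xpc were at 7.20 and 6.87, and 37.1 and 20.6 CPM, against 6.79 and 45.5 CPM. Ptprv had 3 and 15 counts in the tumours and 0 in both normal tables.

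Of 14 apoptosis targets beyond the members, edgeR called 0 in either direction. Without adjustment 5 passed 0.05 as higher and 1 as lower. DESeq2 called 4 higher and 0 lower. Both tumours lay above both normal tables for 10 (71.4%, against 40.6% of all genes) and below for 1, and the median log2 fold change was 1.24. Pmaip1 encodes NOXA, which like PUMA acts on the BCL2 family. It had 2365 and 895 counts in tumours 1 and 2 against 18 and 18 (log2 fold change 5.71, SE 1.22, edgeR adjusted p = 0.0721). Eda2r, a death domain receptor gene, had 2112 and 452 tumour counts and 4 and 5 normal ones (adjusted p = 0.0861). The nuclease gene Aen was at 53.5 and 33.4 CPM against 11.6. Fas (48.4 and 19.5 CPM against 40.3) and Trp53inp1 (326 and 106 CPM against 235) had tumours on either side of normal liver.

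Of 18 targets in metabolism, stress and other roles, edgeR called 2 higher and 1 lower. Without adjustment 5 passed 0.05 as higher and 3 as lower. DESeq2 called 6 higher and 2 lower. The median log2 fold change was 0.01, below that of all genes. Both tumours lay above both normal tables for 8 (44.4%, near the 40.6% of all genes) and below for 8, and for 10 and 5 with library size only. The adenylate kinase gene Ak1 rose from 1 and 1 to 1076 and 648 counts (edgeR adjusted p = 0.0354), 661-fold in tumour 1 (counting interval 118 to 26150) and 317-fold in tumour 2 (56.7 to 12550). Psrc1, a spindle protein gene, rose from 1 count in the double heterozygous table and 0 in the wild type table to 377 and 589 (adjusted p = 0.0278). Gls2, the glutaminase of normal liver, fell from 3598 and 4103 to 68 and 118 counts (log2 fold change -6.27, SE 0.61, adjusted p = 0.0215). These 3 calls and that of Plk3 held in each of 10 alternative fits, with adjusted p of at most 0.0371. In the same libraries the hepatocyte markers were low, and their part in the falls of Gls2 and Plk3 was not tested. Sesn1, a relative of Sesn2, was at 12.3 and 7.51 CPM against 30.7 (adjusted p = 0.211).

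**Figure D4:**
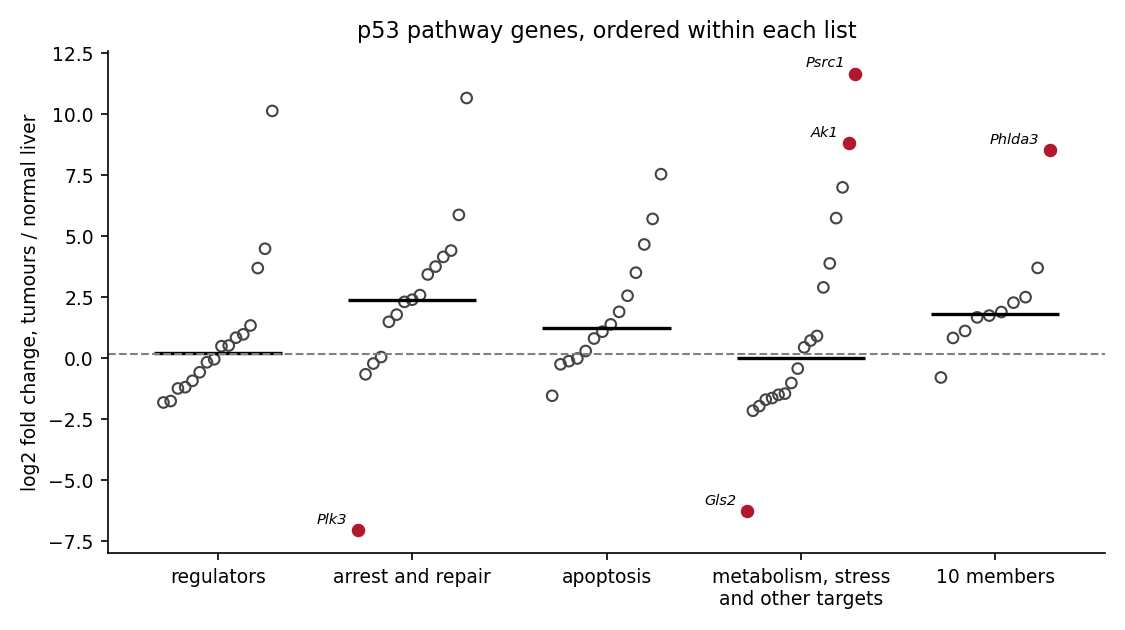
Fitted log2 fold changes of tumours over normal liver for the 63 list genes tested and the 10 members, ordered within each list; filled points passed the edgeR test, black bars are list medians and the dashed line is the median of all genes. Psrc1, Ak1 and Phlda3 are called higher and Plk3 and Gls2 lower; the positions of Psrc1, Cdkn2a, Cdc25c and Ptprv, at 0 in the mean normal library, depend on the fit's prior count.

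Between the tumours, 13 of the 63 list genes were past 2-fold higher in tumour 2 and 10 in tumour 1. These shares are near the 18.8% and 14.9% of all genes, so the counts show nothing particular to the lists. Those higher in tumour 1 included Eda2r (142 and 24.2 CPM in tumours 1 and 2), Pmaip1 (159 and 48.0), Trp53inp1, Fas and Btg2. Those higher in tumour 2 included Thbs1 (45.3 and 706 CPM), Chek1, Gtse1, Cdkn2a, Pcna (23.6 and 96.0) and Ckap2 (18.7 and 152). The rest of them were Cdc25c (0.943 and 27.6 CPM, the largest ratio among the list genes), Chek2, Siva1, Trp53i13, Sfn, Casp1 and Ptprv. Among the genes higher in tumour 2, Pcna, Ckap2, Chek1 and Gtse1 are also known as genes of dividing cells, whose markers were higher there. The part of dividing cells in these differences was not tested.

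Between the normal tables, Phlda3 was too low to compare, and 0 of the other 9 members differed past 2-fold, against 5.78% of 12505 genes with at least 10 counts in either table, a share too low for 9 genes to be read against. The log2 ratio of the double heterozygous to the wild type table was -0.78 for Trp53, and between -0.18 and 0.18 for Mdm2, Bax, Bbc3, Ccng1, Sesn2, Gdf15, Perp and Zmat3. Since these tables share counts beyond sampling, they cannot show an effect of genotype.

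As a description over tumours 1 and 2 and the mean normal library, the genes whose centred log2 CPM lay nearest that of Trp53 were Ror1, Brms1l, Pdgfa, Hspbap1 and Kpnb1, at distances of 0.019 to 0.0268 log2 units. Among the other members, the only targets ranked here, the nearest was Gdf15, at 0.877 (rank 1757 of 14467 genes). The farthest member was Phlda3, at 4.96.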

How the data were processed

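The authors deposited raw read counts per gene symbol, 1 table per library, whole numbers with no normalization. The submitters' processing notes name the build mm9 and the tools HTSeq, TopHat2 2.0.10, DESeq2, Trimmomatic and FastQC, without saying what each did. Whether strand was used is not given in the sources used here. Closing lines that name no gene (5 per library) entered neither library sizes nor tests (per the deposited tables, 13.6% to 31.5% of all alignments counted were outside genes and 30.7% to 51.6% not unique).

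Libraries held 11049931 and 13295216 counts (tumours 1 and 2), 15950426 (double heterozygous normal) and 18448621 (wild type normal). The normal tables were averaged, ties rounded to the even number, because of their shared counts. All genes were fitted in R 4.3.3 with edgeR 4.0.16 (TMM, filterByExpr with a minimum count of 10, glmQLFit, glmQLFTest, Benjamini-Hochberg); the common dispersion was 0.442. The functions were tested on simulated data. DESeq2 1.42.0 was an alternative. An approximate SE was taken as the size of the log2 fold change over the root of its F statistic. Overlap of the tumours with each normal table was judged after TMM over all 4 libraries. Ratios of 1 library to 1 used a prior count of 2. Counting intervals are exact (Clopper-Pearson, 95%).

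The reference (GRCm38, GENCODE M21) is of another build, so it served only for sequence and transcript length, and 89.3% of symbols matched. Counts are uncertain for genes sharing over 10% of their 31-mers (1 in 16 sampled) with other genes. These were 2 of the members (Trp53 and Bax) and 19 of the 63 list genes tested. Of the list genes named, they were Mdm4, Ddb2, Pcna, Ckap2, Cdc25c, Siva1, Trp53i13 and Sfn. So were the markers Spp1, Lyz2, Itgam, Csf1r and Cd247, and Pdgfa among the genes nearest Trp53. Promoter windows came from RefSeq (GRCm38.p6). The genes named are the 10 members, a set of pathway genes listed by rule (Cdkn1a, Cdkn2a, Mdm4 and others) and every list gene past the test. Members and lists were chosen with earlier results of these data known. Pidd was matched as Lrdd and Tigar as 9630033F20Rik. One gene of the lists is not reported here and was left out of their counts.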

Additional observations from a re-analysis of the deposited data

How the results depend on the processing

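Of all genes, 322 were called higher and 751 lower. These counts became 635 and 472 with library size as the only scaling, 903 and 1383 without the filter on low counts, 3058 and 3157 with the normal tables as separate libraries, and 1641 and 1727 by DESeq2. Of the calls, 30.01% were higher with TMM, 57.4% with library size only, 39.5% without the filter, 49.2% with separate normal tables and 48.7% by DESeq2. Of the 10 p53 genes 1 was called higher and 0 lower. Library size only and no filter each gave 2 higher, DESeq2 gave 4, and the fit with separate normal tables gave 7 higher and 1 lower (Perp). Of the pathway list genes, 2 were called higher and 2 lower; the counts of higher genes were 6, 12, 19 and 21 in the same order (library size, no filter, DESeq2, separate tables), and separate tables gave 10 lower. That alternative takes its spread partly from normal tables that share counts. Perp reversed to 0.59 on the log2 scale with library size only. Upper quartile scaling, a robust fit, leaving out genes with shared sequence, using either normal table alone and rounding ties up (chosen after seeing the data) left the members called at 1, Phlda3. Leaving out a tumour leaves no residual degree of freedom, so it gives values with no test: with tumour 2 alone the log2 ratio to normal liver of Bbc3 was -0.18, and with tumour 1 alone 1.76. Between the tumours, 2 members were past 2-fold higher in tumour 1, 1 with library size only and 0 at 4-fold. No paired analysis was possible because the tumours are numbered and the normal libraries are not. Depth limits the folds of Phlda3, Ak1, Psrc1 and Cdkn2a, which rest on at most 3 counts in each normal table.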
